A study of Homo sapiens with 8 samples.

Results

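The genes of the platelet-derived growth factor (PDGF) family were followed in cultured human intestinal epithelial cells (hIECs) exposed to inflammatory cytokines and to particulate matter. All 7 genes whose symbol begins with PDGF and that encode a ligand, a receptor or the receptor-like protein were taken, out of the 60558 genes in the expression tables. They are the 4 ligand genes PDGFA, PDGFB, PDGFC and PDGFD, the 2 receptor genes PDGFRA and PDGFRB, and PDGFRL. All 7 were among the 14206 genes with at least 1 FPKM (fragments counted per kilobase of a transcript's length and relative to all mapped fragments) in at least 2 libraries, the genes that were tested.

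PDGF ligands are secreted dimers that drive the growth and migration of mesenchymal cells, and their receptors are class III receptor tyrosine kinases that dimerize when a ligand binds. PDGFA and PDGFB proteins are cut by furin-like proteases inside the cell, whereas PDGFC and PDGFD proteins are secreted in a latent form with a CUB domain that plasminogen activators and other proteases remove outside it. In the intestine the ligands come largely from epithelial and other cells and the receptors sit largely on fibroblasts, subepithelial mesenchymal cells and pericytes, where PDGFRA and PDGFRB mark different populations.

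The cells were 2D hIECs derived from the human embryonic stem cell line H9, an established line that was kept on mouse feeder cells before differentiation. The 8 RNA-seq libraries fall into 4 groups of 2. Normal hIECs received neither treatment. Inflamed hIECs received the cytokines IFNγ (an interferon) and TNFα (a tumor necrosis factor) together for 10 days. PM10, a coarse air pollutant, was added to either state for the last part of that time, giving normal hIECs with PM10 and inflamed hIECs with PM10. All groups thus share 1 cell line, and no source says whether the 2 libraries of a group came from separate cultures, so that the p-values given here measure the spread between these libraries, which may be technical.

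Before the PDGF genes, the cell type named in the labels was set against its markers. Of 14 intestinal epithelial markers, 7 were at 0 in all 8 libraries, among them VIL1, CDX2, MUC2 and LYZ. EPCAM did not exceed 0.622 FPKM, and CDH1 was at 0 in 7 of the 8 libraries. KRT8 and KRT18, keratins of simple epithelia, were high, at 373 and 383 FPKM and at 266 and 265 FPKM in the normal libraries. All 13 fibroblast and mesenchymal markers were tested, and in the normal libraries COL3A1 stood at 1034 and 1014 FPKM and VIM at 923 and 904. The endothelial markers PECAM1, CDH5, VWF and CLDN5 and the smooth muscle marker MYH11 were at 0 throughout. Other members of these lists were not. In normal hIECs the smooth muscle markers ACTA2 and TAGLN had means of 688 and 876 FPKM, and the endothelial marker EMCN 26.4 FPKM. By FPKM most defining markers thus go against an epithelial label, and hIECs is used here only as the study's name for these cells. The study itself reported VIL1, CDX2, MUC2 and LYZ in its hIECs, both by quantitative PCR and by immunostaining. The cause of this difference from the FPKM values was not tested. No read counts were used, so depth is known only through the lowest value above 0, which lay between 0.164 and 0.228 FPKM, and genes of mitochondrial DNA took 15.5% to 24.2% of the FPKM sum.

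**Figure D1:**
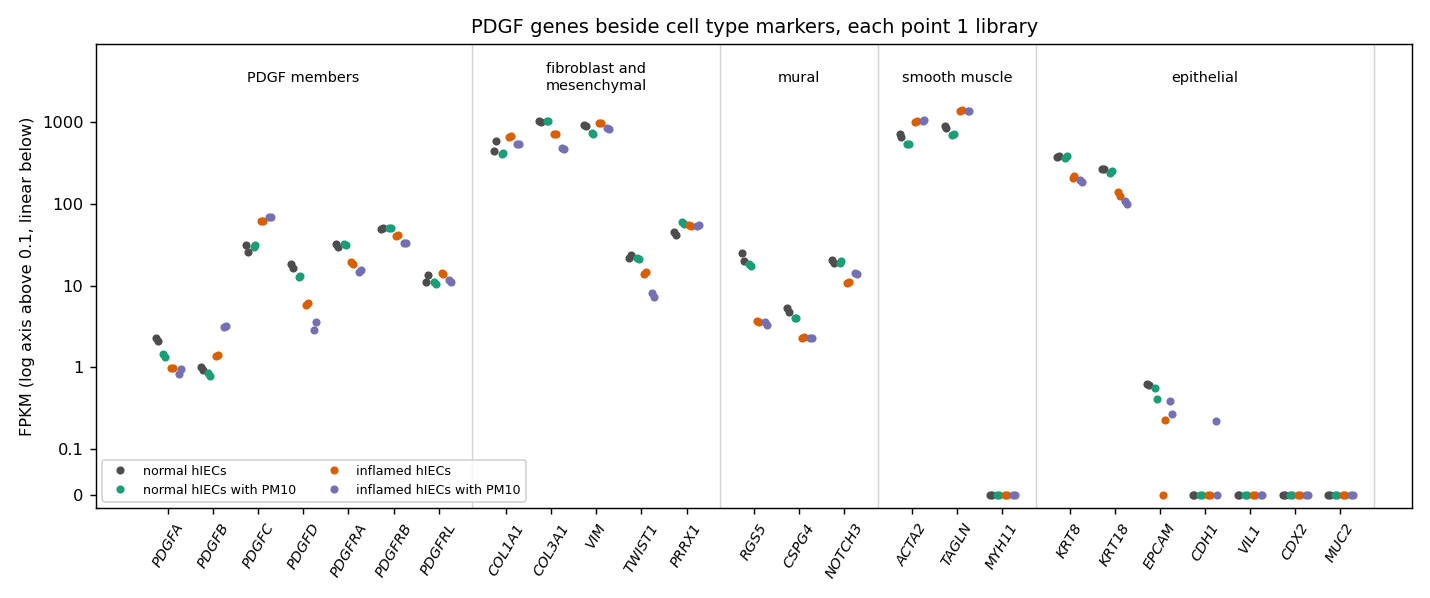
FPKM of the 7 PDGF genes and of selected cell type markers, with 1 point per library and colors for the 4 groups. The axis is logarithmic above 0.1 FPKM and linear below it, so that values of 0 can be drawn. The mesenchymal markers COL1A1, COL3A1 and VIM lie above all PDGF genes in every library, VIL1, CDX2 and MUC2 lie at 0 in every library, and PDGFRB, PDGFRA and PDGFC are the highest PDGF genes in normal hIECs.

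PDGFRB was the most strongly expressed of the 7 genes in normal hIECs, and PDGFC in inflamed hIECs. FPKM is scaled to transcript length, so levels can be set side by side between genes. PDGFRB had 50.3 ± 0.78 FPKM (mean ± SD, n = 2 libraries for all values of this kind), PDGFRA 31.1 ± 1.74, PDGFC 28.2 ± 3.95, PDGFD 17.4 ± 1.63, PDGFRL 12.1 ± 1.67, PDGFA 2.18 ± 0.134 and PDGFB 0.969 ± 0.058. PDGFRA and PDGFC overlapped in this order, and the other neighbours did not. With PM10 and without cytokines the order was the same. In inflamed hIECs PDGFC came first, followed by PDGFRB, PDGFRA, PDGFRL, PDGFD, PDGFB and PDGFA. In inflamed hIECs with PM10 the order was again that of inflamed hIECs, but PDGFD (2.83 and 3.58 FPKM) and PDGFB (3.14 and 3.19 FPKM) overlapped. PDGFA and PDGFB were weakly expressed in every group, at 3.94 to 13.9 and 3.91 to 15.03 times the lowest value above 0 of their library, and PDGFA was under 1 FPKM in all 4 libraries with cytokines.

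**Figure D2:**
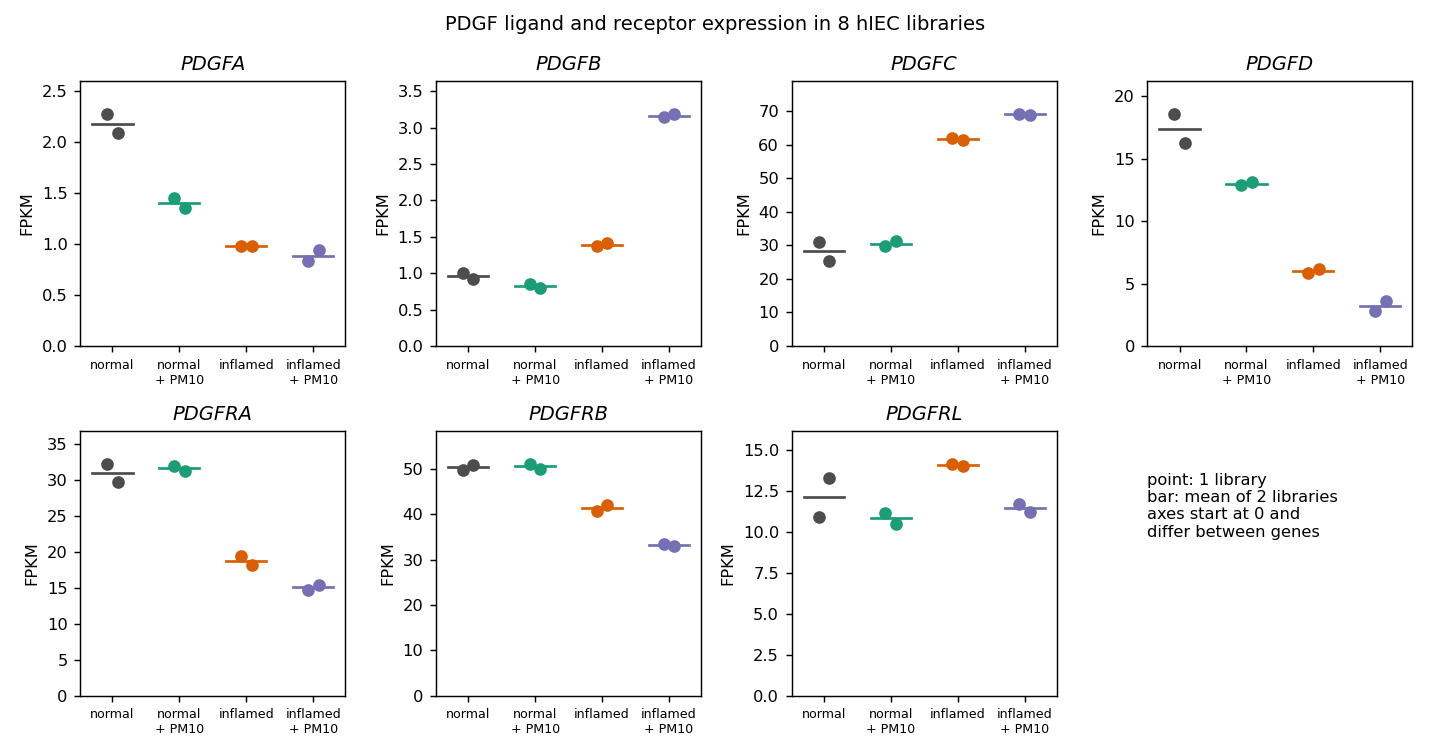
FPKM of each PDGF gene in each library, with 1 panel per gene, 1 point per library, a bar at the mean of the 2 libraries of a group, and a linear axis from 0 that differs between panels. PDGFC is higher and PDGFA, PDGFD, PDGFRA and PDGFRB are lower in all 4 libraries with cytokines than in all 4 without, and PDGFB is highest in inflamed hIECs with PM10.

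Inflamed hIECs were first compared with normal hIECs, to ask how IFNγ and TNFα alone moved the family. The ligands moved in both directions and both signaling receptors fell. limma, on log2(FPKM + 1), called 6 of the 7 genes at an adjusted p-value under 0.05, PDGFB and PDGFC higher and PDGFA, PDGFD, PDGFRA and PDGFRB lower. Over all genes tested the same rule called 56.2%, so that most genes moved in this comparison, and a count of this size says little about the family as such. The groups did not overlap for any of the 7 genes, against 77.5% of all genes tested. Fold changes on the log2(FPKM + 1) scale understate the change of weakly expressed genes such as PDGFA and PDGFB. In bulk RNA, fewer cells of a type and less RNA per cell cannot be told apart.

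PDGFC, a ligand activated outside the cell that binds PDGFRA homodimers, had 31.0 and 25.5 FPKM in the normal libraries and 62.1 and 61.5 FPKM in the inflamed ones. Both inflamed libraries were far above both normal ones, and the normal libraries were the farther apart. The mean was 2.19 times higher, and the log2 change was 1.11 ± 0.086 SE (adjusted p = 3.53e-05 by limma), and it ranked 477 by size among the 6725 genes that were higher. PDGFD, the other ligand activated outside the cell, which binds mainly PDGFRB, fell from 18.6 and 16.3 FPKM to 5.81 and 6.16 FPKM. Its log2 change was -1.40 ± 0.099 SE (adjusted p = 2.34e-05 by limma), the largest of the family. The 2 latent ligands therefore moved in opposite directions in the same libraries.

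The classical ligands were low throughout. PDGFA reached the 1 FPKM of the filter only in libraries without cytokines. It thus entered the tests through the side where it was high. PDGFB reached that level in every library with cytokines but, without them, only in the first normal library. Their calls between inflamed and normal hIECs, without and with PM10, and the counts that include them are read with that limit. PDGFA, which binds PDGFRA, went from 2.28 and 2.09 FPKM to 0.987 and 0.983 FPKM, and the log2 change was -0.68 ± 0.085 SE (adjusted p = 4.01e-04 by limma). PDGFB, which binds both receptors, went from 1.01 and 0.928 FPKM to 1.37 and 1.42 FPKM, with a log2 change of 0.28 ± 0.079 SE (adjusted p = 0.0178 by limma). The PDGFB groups were separate but close, and this call was lost when the fit held only these 2 groups (limma adjusted p = 0.0532) and when either inflamed library or the second normal library was left out.

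Both signaling receptors fell in inflamed hIECs. PDGFRA went from 32.3 and 29.8 FPKM to 19.4 and 18.2 FPKM (log2 change -0.69 ± 0.061 SE, adjusted p = 6.48e-05 by limma). PDGFRB went from 49.8 and 50.9 FPKM to 40.7 and 41.9 FPKM (log2 change -0.28 ± 0.045 SE, adjusted p = 0.00143 by limma). All inflamed libraries were below all normal libraries for both receptors. PDGFRL, which encodes a secreted protein that resembles the ligand-binding region of PDGFRB and has no kinase domain, had 10.9 and 13.3 FPKM in normal and 14.2 and 14.03 FPKM in inflamed libraries and did not pass the test (log2 fold change 0.21, 95% interval 0.0037 to 0.41, limma adjusted p = 0.0772). Its value is uncertain, because exons of PDGFRL overlap those of MTUS1 on the other strand, which had 0.434 to 4.12 FPKM, and the libraries carry no strand information.

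The same contrast made in the presence of PM10 shares no library with the one above. Between inflamed and normal hIECs that both received PM10, limma again called 6 of the 7 genes, 2 higher and 4 lower, where it called 65.4% of all genes tested. All 7 genes had groups that did not overlap, against 84.9% of all genes. The median of all genes was shifted by -0.109 on the log2 scale in this comparison, and the changes of the PDGF genes are read against that. PDGFB differed most from the contrast without PM10, with 0.847 and 0.795 FPKM in normal and 3.14 and 3.19 FPKM in inflamed libraries with PM10, a mean 3.86 times higher (log2 change 1.19 ± 0.079 SE, adjusted p = 1.09e-05 by limma). PDGFC rose by 1.15 on the log2 scale (limma adjusted p = 2.03e-05), close to its rise without PM10. The falls of PDGFD, PDGFRA and PDGFRB were -1.74, -1.02 and -0.59, and that of PDGFA was -0.35 (limma adjusted p = 0.00841). The call of PDGFA was lost under quantile normalization (log2 fold change -0.15, limma adjusted p = 0.132) and without the first inflamed library with PM10 (limma adjusted p = 0.0512). PDGFRL did not pass the test (0.074, 95% interval -0.13 to 0.28, limma adjusted p = 0.479).

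PM10 was then asked about in each state by itself. In normal hIECs 1 weakly expressed ligand fell. limma called 1 of the 7 genes, PDGFA, as lower, and 9.23% of all genes tested. PDGFA had 2.28 and 2.09 FPKM without and 1.45 and 1.36 FPKM with PM10 (log2 change -0.40 ± 0.085 SE, adjusted p = 0.0313 by limma). The PDGFA groups did not overlap, but its call was lost when any 1 of the 8 libraries was left out (limma adjusted p up to 0.14) and when the fit held only these 2 groups (0.131), which called 0.162% of all genes.

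PDGFD was at the threshold in normal hIECs. It had 18.6 and 16.3 FPKM without and 12.9 and 13.1 FPKM with PM10 (log2 change -0.39 ± 0.099 SE, adjusted p = 0.051 by limma), and it passed under median centring (limma adjusted p = 0.0282) and quantile normalization (0.0221). PDGFRA and PDGFRB did not pass the test. The log2 difference was 0.029 for PDGFRA, with a 95% interval of -0.11 to 0.17, and 0.0067 for PDGFRB, with an interval of -0.098 to 0.11, and both turned negative under median centring. PDGFB, PDGFC and PDGFRL did not pass either, with log2 differences of -0.11, 0.11 and -0.14. Of the 7 genes, 3 had groups that did not overlap, against 56.5% of all genes.

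In inflamed hIECs PM10 raised PDGFB and lowered PDGFD and both signaling receptors. limma called 4 of the 7 genes, PDGFB as higher and PDGFD, PDGFRA and PDGFRB as lower, and 15.2% of all genes tested. The groups of all 7 genes did not overlap, against 65.1% of all genes. PDGFB rose from 1.37 and 1.42 FPKM to 3.14 and 3.19 FPKM, so that both libraries with PM10 were more than 2 times as high as those without. The mean was 2.27 times higher (log2 change 0.80 ± 0.079 SE, adjusted p = 0.00137 by limma), and among the 6823 genes that were higher it ranked 88 by the size of this change.

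PDGFD fell from 5.81 and 6.16 FPKM to 2.83 and 3.58 FPKM in the same comparison. The mean was 0.535 times that without PM10 (log2 change -0.74 ± 0.099 SE, adjusted p = 0.00421 by limma), and it ranked 217 among the 7279 genes that were lower. PDGFD was 1 of the genes that the study picked for quantitative PCR from these libraries, so its fall here is not independent of that choice. By that quantitative PCR the study reported a significant fall of PDGFD with PM10 in inflamed hIECs. It also reported lower expression of the picked genes with PM10 in inflamed intestinal organoids.

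Both receptors fell again in inflamed hIECs with PM10. PDGFRB went from 40.7 and 41.9 FPKM to 33.4 and 33.0 FPKM (log2 change -0.31 ± 0.045 SE, adjusted p = 0.00574 by limma). PDGFRA went from 19.4 and 18.2 FPKM to 14.7 and 15.5 FPKM (log2 change -0.30 ± 0.061 SE, adjusted p = 0.0188 by limma). For both genes the libraries with PM10 lay below those without. The call of PDGFRA was lost when any 1 of the 4 inflamed libraries was left out (limma adjusted p up to 0.114), and that of PDGFRB was lost without the second inflamed library (0.0524), where the share of all genes called was 4.8%. PDGFA (log2 difference -0.073, 95% interval -0.27 to 0.13), PDGFC (0.16, interval -0.044 to 0.36) and PDGFRL (-0.28, interval -0.48 to -0.072, limma adjusted p = 0.0738) did not pass.

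Whether the PM10 response differed between the 2 states was tested as an interaction. limma called 2 of the 7 genes, PDGFB and PDGFRB, and 6.6% of all genes tested. For PDGFB the log2 fold change with PM10 was -0.11 in normal and 0.80 in inflamed hIECs, a difference of 0.91 ± 0.11 SE (adjusted p = 0.00619 by limma). PDGFB kept its call in all 16 alternatives in which its interaction was fitted, and the filter at 5 FPKM left it out. For PDGFRB the corresponding values were 0.0067 and -0.31, a difference of -0.32 ± 0.063 SE (adjusted p = 0.0319 by limma). The PDGFRB call was lost under median centring (limma adjusted p = 0.0594), without a trend of the variance (0.0655) and without any 1 of the 6 libraries that received a treatment (up to 0.119). PDGFD, with log2 fold changes of -0.39 and -0.74, did not pass this test (difference -0.34, 95% interval -0.67 to -0.016, limma adjusted p = 0.195), nor did PDGFRA (-0.33, limma adjusted p = 0.0668) or PDGFA (0.33, limma adjusted p = 0.155).

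**Figure D3:**
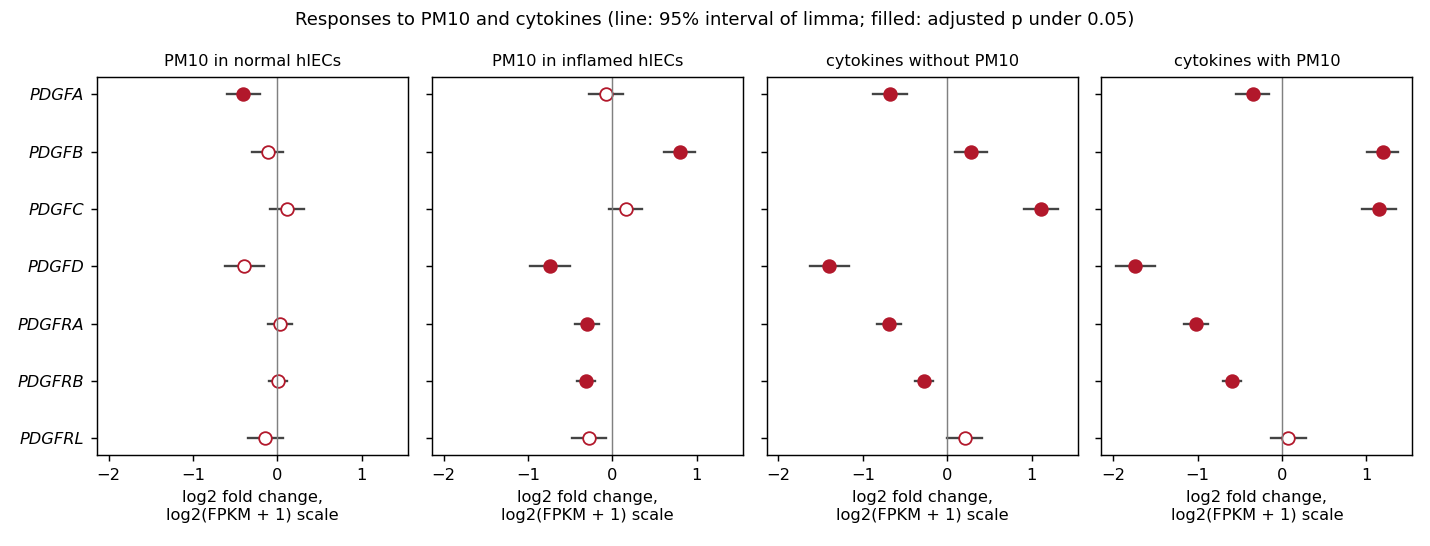
Log2 fold changes of the 7 PDGF genes on the log2(FPKM + 1) scale in 4 comparisons, with the 95% interval of limma as a line and a filled point where the adjusted p-value was under 0.05. PDGFB lies at -0.11 with PM10 in normal hIECs and at 0.80 with PM10 in inflamed hIECs, whereas PDGFC lies above 1 in both cytokine comparisons and is not called in either PM10 comparison.

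Normal hIECs without any treatment served as the reference of the study, so the double treatment was also set against them. This comparison shares its libraries with others above and adds no independent evidence. limma called 6 of the 7 genes and 66.3% of all genes tested, and 6 genes had groups that did not overlap, against 82.5% of all genes. Across both treatments PDGFD fell from a mean of 17.4 to 3.20 FPKM (log2 fold change -2.14), PDGFRA by 0.99, PDGFA by 0.75 and PDGFRB by 0.59 on the log2 scale. PDGFC rose by 1.27 and PDGFB by 1.08. PDGFRL stood at -0.068 (limma adjusted p = 0.514).

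These changes altered the make-up of the family at the RNA level, which is given here as a description with no test. PDGFC made up 56.9% to 67.2% of the summed FPKM of the 4 ligands in the libraries without cytokines and 87.8% to 91.03% in those with cytokines. PDGFD made up 28.2% to 36.4% in the former and 3.73% to 8.79% in the latter. PDGFB stayed between 1.71% and 2.07% in 6 libraries and reached 4.14% and 4.16% in inflamed hIECs with PM10. The sum of the ligands was 44.7 to 52.9 FPKM without and 70.1 to 76.6 FPKM with cytokines.

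The receptors went the other way. The sum of PDGFRA and PDGFRB was 80.7 to 83.1 FPKM without cytokines, 60.2 FPKM in both inflamed libraries and 48.1 and 48.4 FPKM in inflamed hIECs with PM10. Summed ligands were 0.539 to 0.645 times the summed receptors without cytokines. They were 1.17 and 1.16 times in the inflamed libraries without PM10, and 1.58 times in both inflamed libraries with PM10. The ratio of PDGFRB to PDGFRA was 1.54 to 1.70 without cytokines and 2.10 to 2.301 with them, and PM10 did not separate the libraries of either state in this ratio.

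**Figure D4:**
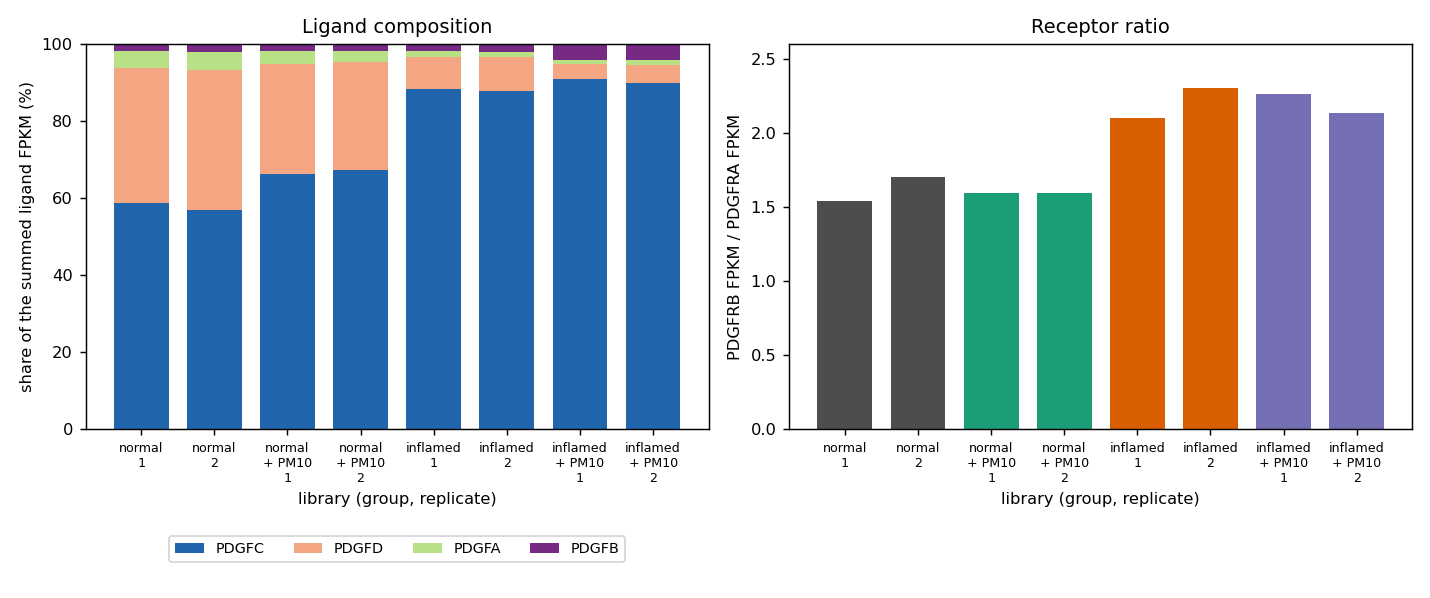
Left, share of each ligand gene in the summed FPKM of the 4 ligands in each library, in percent. Right, ratio of PDGFRB FPKM to PDGFRA FPKM in each library. The PDGFC share lies at or above 87.8% and the receptor ratio at or above 2.10 in the 4 libraries with cytokines.

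The genes lie at separate places in the genome, given here in GRCh38 with GENCODE gene models. PDGFA (ENSG00000197461) spans chr7:497258-520296 on the minus strand, PDGFB (ENSG00000100311) chr22:39223359-39244982 on the minus strand, PDGFC (ENSG00000145431) chr4:156760454-156971799 on the minus strand and PDGFD (ENSG00000170962) chr11:103907189-104164379 on the minus strand. PDGFRA (ENSG00000134853) spans chr4:54229280-54298245 on the plus strand, and PDGFRB (ENSG00000113721) chr5:150113839-150155872 on the minus strand. Both receptor genes sit beside related receptor genes. CSF1R, the receptor of CSF1, begins 466 bases from the end of PDGFRB and was at 0 in all 8 libraries. KIT lies 359.0 kb from PDGFRA, with 0.245 to 0.392 FPKM without cytokines and 0 with them, and KDR, at 780.2 kb, was at 0. The KIT values above 0 lie near the lowest FPKM above 0 of a library (0.164 to 0.228). Its values of 0 therefore cannot be told from a low level. Exons of PDGFD and PDGFRA overlap those of DDI1 and of ENSG00000282278, which were both at 0 throughout.

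RefSeq promoter entries (GRCh38.p14) were matched for 4 of the 7 genes, PDGFA, PDGFD, PDGFRA and PDGFRB, which are the 4 that fell with cytokines. No sequence is shown for PDGFD, because its RefSeq start lies 232 bases from the start of its gene model, which leaves too short a stretch. The stretch of up to 250 bases before the RefSeq start is shown for PDGFA and the receptors. Each is written 5′ to 3′ on the strand of its gene and ends before the first base of the longest gene model. Capitals mark matches to the AP-1 site TGANTCA in PDGFRA, to the aryl hydrocarbon receptor core GCGTG (read on the other strand in PDGFRB) and to the serum response element core, the second match in PDGFA. The places are chr7:520297-520476 (minus strand) for PDGFA, chr4:54229043-54229279 (plus strand) for PDGFRA and chr5:150155873-150156095 (minus strand) for PDGFRB.
PDGFA: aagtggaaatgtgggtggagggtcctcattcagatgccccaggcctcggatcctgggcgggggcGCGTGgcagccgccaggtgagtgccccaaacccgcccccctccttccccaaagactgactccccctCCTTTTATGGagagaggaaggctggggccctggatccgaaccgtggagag
PDGFRA: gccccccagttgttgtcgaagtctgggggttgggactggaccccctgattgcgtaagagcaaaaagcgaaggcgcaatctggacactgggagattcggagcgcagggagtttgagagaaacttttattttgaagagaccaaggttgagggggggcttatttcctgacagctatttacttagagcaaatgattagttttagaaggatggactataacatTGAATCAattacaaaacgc
PDGFRB: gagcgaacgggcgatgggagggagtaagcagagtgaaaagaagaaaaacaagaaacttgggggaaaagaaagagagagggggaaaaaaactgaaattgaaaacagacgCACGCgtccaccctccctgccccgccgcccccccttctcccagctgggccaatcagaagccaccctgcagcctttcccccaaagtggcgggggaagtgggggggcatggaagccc

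Over the 250 bases before the RefSeq start, PDGFA and PDGFD had 68.8% and 69.2% of G and C, PDGFRB 58.4% and PDGFRA 46.8%, against a median of 58.0% over 35116 promoters. Searched on both strands over 300 bases, 50 of them after the start, none of the 4 promoters held the NF-kB site, which 5.91% of all promoters held, or the TATA box TATAAA (11.5%). The AP-1 site in PDGFRA begins 32 bases before the RefSeq start, which lies 13 bases inside the gene model where the printed stretch ends, and 7.71% of all promoters held one. The aryl hydrocarbon receptor core was present in PDGFA, PDGFRB and, after the start, in PDGFD, and in 36.5% of all promoters. The GC box GGGCGG was present in PDGFA, PDGFD and PDGFRB and in 44.95% of all promoters, and the serum response element core in PDGFA and in 1.29%. No match overlapped another. A match of letters is not a site in use, and a missing match says only that these letters were not in this window.

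Genes that process or hold the ligands outside the receptors moved unevenly. Of 10 such genes, 7 were tested, and in inflamed against normal hIECs 2 were called higher and 2 lower. Over all genes tested, 25.9% were called higher and 30.3% lower in that comparison. FURIN, the protease that cuts the PDGFA and PDGFB precursors, rose from 25.8 and 24.3 FPKM to 40.6 and 45.3 FPKM, and LRP1, an endocytic receptor that associates with PDGFRB, rose by 0.34 on the log2 scale. PLAT, which activates PDGFC, fell from 45.6 and 41.8 FPKM to 23.6 and 25.2 FPKM (log2 fold change -0.82, limma adjusted p = 2.77e-05) while PDGFC rose. A2M, a plasma protein that binds PDGF, fell from 206 and 182 FPKM to 73.6 and 71.7 FPKM. After PM10 in inflamed hIECs, 2 of the 7 were called higher and 1 lower, against 6.22% and 9.02% of all genes tested. FURIN reached 58.2 and 59.1 FPKM (log2 fold change 0.44, limma adjusted p = 0.00557) beside the rise of PDGFB. PLAU, which activates PDGFD, went from 8.31 and 7.86 FPKM to 14.4 and 13.3 FPKM (log2 fold change 0.71, limma adjusted p = 0.0012) beside the fall of PDGFD. A2M fell further, by 0.62 on the log2 scale.

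Inside the cell, the adaptors and effectors of the receptors moved in both directions. All 23 listed genes were tested. Cytokines raised 5 of them and lowered 4, against 25.9% and 30.3% of all genes tested. The median log2 fold change was 0.0051 over the 23, against -0.028 over all genes. The largest called rises were those of PIK3CB (0.66) and PIK3R2 (0.60), catalytic and regulatory subunits of phosphoinositide 3-kinase, and the largest falls those of PLCG1 (-0.80), a phospholipase that docks on the receptors, and PIK3R1 (-0.64). PM10 in inflamed hIECs raised 2 of the 23, the phosphatase PTPN11 (0.38) and the adaptor CRK (0.27), against 6.22% of all genes.

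Of 15 inhibitors of receptor signaling, all tested, 9 were called higher and 3 lower with cytokines, against 25.9% and 30.3% of all genes. The median log2 fold change was 0.38, against -0.028 over all genes. SH2B3, an adaptor that restrains cytokine and growth factor receptors, rose from 10.3 and 9.56 FPKM to 28.5 and 29.7 FPKM, and SPRY4, an inhibitor of the Ras pathway, rose by 0.72 on the log2 scale. DUSP4, a phosphatase of MAP kinases, fell by 0.67 and SPRED2 by 0.37. With PM10 in inflamed hIECs, 2 were called higher and 3 lower, against 6.22% and 9.02% of all genes. DUSP4 rose by 0.68 and LRIG1 by 0.33, while CBLB, a ubiquitin ligase of receptors, and SPRY2 fell by 0.46 and 0.43.

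The immediate early genes, whose transcription growth factors and other stimuli switch on within minutes, moved in both directions. All 9 were tested. With cytokines 5 were called higher, led by CCN1 (1.16) and FOS (0.60), and 1 lower, EGR3 (-0.84). The shares of all genes were 25.9% and 30.3%. With PM10 in inflamed hIECs 5 were called lower and 1 higher, CCN1 (0.26), against 9.02% and 6.22% of all genes. FOS fell from 29.6 and 28.4 FPKM to 4.999 and 4.73 FPKM and EGR1 from 101 and 104 FPKM to 40.2 and 42.1 FPKM in that comparison. With PM10 in normal hIECs 2 of the 9 were called higher and 1 lower, CCN2, from 558 and 476 FPKM to 355 and 350.4 FPKM. Of all genes, 5.51% were called higher and 3.72% lower there. In normal hIECs FOS had 16.8 and 21.2 FPKM without and 23.9 and 23.8 FPKM with PM10. In the interaction of PM10 and cytokines 5 of the 9 were called, all 5 lower, against 4.48% of all genes called lower.

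The closest relatives of the family that were tested were mostly ligands. Of 15 genes of the VEGF family and the other class III receptors with their ligands, 8 were tested, and CSF1R, FLT3, KDR, FLT4 and VEGFD were at 0 in all libraries. Cytokines raised 4 of the 8 and lowered 2, against 25.9% and 30.3% of all genes. VEGFC rose from 3.62 and 3.34 FPKM to 26.3 and 25.02 FPKM, and CSF1 from 5.43 and 5.39 FPKM to 32.4 and 33.3 FPKM. PGF and VEGFB fell by 0.53 and 0.52 on the log2 scale. VEGFC rose further with PM10 in inflamed hIECs, by 0.50, and PGF fell by 0.56.

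Markers of the cells that usually carry the receptors moved with some of these changes. The summed FPKM of the 5 mural cell markers found, RGS5, CSPG4, NOTCH3, KCNJ8 and ABCC9, was 44.96 to 51.8 in normal hIECs, 42.1 to 42.8 with PM10, 17.4 to 17.9 in inflamed hIECs and 19.8 to 20.7 with both. All 3 that were tested were called lower with cytokines, against 30.3% of all genes. RGS5 changed by -2.34 on the log2 scale, in the comparison in which PDGFRB fell by 0.28. With PM10 in inflamed hIECs NOTCH3 was the 1 of the 3 that was called, and it was higher (0.35), in the comparison in which PDGFRB fell by 0.31. The 13 fibroblast and mesenchymal markers had a summed FPKM of 3988 to 4066 in normal hIECs, 3760 to 3764 with PM10, 4052 to 4087 in inflamed hIECs and 3353 to 3383 with both. With cytokines 6 were called higher and 4 lower, against 25.9% and 30.3% of all genes. With PM10 in inflamed hIECs 1 was called higher, LUM (0.51), and 7 lower, led by TWIST1 (-0.81) and DCN (-0.72). Of all genes, 6.22% were called higher and 9.02% lower there.

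The 8 smooth muscle markers listed summed to 1681 to 1837 FPKM in normal hIECs, 1368 to 1392 with PM10, 2490 to 2527 in inflamed hIECs and 2522 to 2545 with both, most of it from ACTA2 and TAGLN. With cytokines 4 of the 6 tested were called higher and 1 lower, ACTG2, from 130.03 and 101 FPKM to 39.2 and 40.04 FPKM. Of all genes, 25.9% were called higher and 30.3% lower with cytokines, and 6.22% and 9.02% with PM10 in inflamed hIECs. The counts below are read against these shares. The 9 markers of subepithelial PDGFRA-high cells had a sum of 25.4 to 28.5 FPKM in normal hIECs, 22.9 in both libraries with PM10, 12.3 to 13.6 in inflamed hIECs and 15.1 to 15.8 with both. With cytokines 3 of the 5 tested were called lower, BMP4 (-1.57) most, and 1 higher, WNT5A (0.51). The epithelial list summed to 644 to 654 FPKM in normal hIECs, 601 to 638 with PM10, 352 to 358 in inflamed hIECs and 295 to 313 with both, nearly all of it from KRT8 and KRT18. With cytokines 2 of the 4 tested, these keratins, were called lower and 1 higher, and with PM10 in inflamed hIECs 1 was called in each direction. The gene called higher in both was LGR5, which the study used as a marker of intestinal stem cells. It had 2.63 and 2.01 FPKM in normal hIECs, 5.68 and 5.26 FPKM in inflamed hIECs and 8.28 and 7.92 FPKM with both. By quantitative PCR the study reported the opposite direction, with lower LGR5 in inflamed hIECs with PM10. The cause of this difference was not tested. Of the endothelial list only EMCN was tested. It fell by 1.90 on the log2 scale with cytokines and by 0.98 with PM10 in inflamed hIECs. Of the neural and glial markers, STMN2 fell by 1.14 on the log2 scale with cytokines. The part of these shifts in the PDGF values was not tested.

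The genes whose profile was most like that of each PDGF gene were found by Pearson's r of log2(FPKM + 1) over the 8 libraries. These are descriptions over libraries that share 4 groups, so that a large difference with cytokines gives a high r to many genes. They were ANGPTL6, DKK1 and DYNLL1 for PDGFA (r 0.986 to 0.991), HFE, IGFBP5 and FLNC for PDGFB (0.995 to 0.997) and TANK, GRAMD2B and PAPSS2 for PDGFC (0.998 to 0.999). For PDGFD they were LPAR4, CFI and NTS (0.996 to 0.997), for PDGFRA APBB3, PELI1 and GPRASP1 (0.998 to 0.999) and for PDGFRB NR2F1, COL3A1 and SAMD11 (0.997 to 0.998). PDGFRL stood apart, with HIST1H3H, GNG5 and CHAC1 at 0.949 to 0.979. An r over 0.9 was reached by 18 of 12382 protein-coding genes for PDGFRL, by 608 for PDGFB and by 2601 for PDGFRA. Within the family, PDGFRA and PDGFRB had r = 0.965, PDGFD and PDGFRA 0.975, and PDGFC and PDGFRA -0.966.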

How the data were processed

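RNA-seq covered 8 libraries of 2D hIECs, 2 in each of 4 groups, with the groups taken from the sample titles. Per the labels and the study's methods, the authors selected poly-A RNA, prepared libraries that do not keep the strand, trimmed reads with cutadapt, aligned them to hg38 with HISAT2 and estimated expression with StringTie. The values the authors deposited are FPKM, 1 per gene and library, not scaled further. Of the 60558 gene identifiers, 99.5% were found in GENCODE release v44, which gave positions and overlaps.

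All tests used log2(FPKM + 1). One fit of limma 3.58.1 (in R 4.3.3) took in the 8 libraries and the 14206 genes that reached 1 FPKM in 2 or more of them, and it let the variance follow the mean. Benjamini-Hochberg adjustment ran over all 14206 genes for each comparison, and 0.05 was the threshold. No exact permutation test of single genes was run, since 2 libraries against 2 allow no two-sided p-value under 0.333. Motifs were searched in RefSeq promoter entries, using for each gene the entry nearest to its GENCODE start. Scripts were tested on simulated data. Python 3.11.15 with pandas 2.3.3, numpy 2.4.6 and matplotlib 3.10.9 made the tables and plots.

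All 7 members are given in every library. From each list the text names at most the 2 largest called rises and 2 largest called falls with cytokines and with PM10 in inflamed hIECs, as well as markers for the check of the cell type. CCN2 was named after its values were seen. Members and lists were chosen with earlier results of these data known. Alternatives changed the pseudocount, the filter, the scaling, the trend, the set of groups fitted or the set of genes (protein-coding alone), added a replicate block, or left out each library in turn. Some items that were analysed are not reported here.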

Additional observations from a re-analysis of the deposited data

Results flagged for a closer look

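By limma's interaction test, 2 of the 7 PDGF genes were called as responding differently to PM10 in the normal and the inflamed state. For PDGFB the log2 fold change with PM10 was 0.912 higher in inflamed than in normal hIECs (limma adjusted p = 0.00619). It was -0.113 in normal and 0.799 in inflamed hIECs. For PDGFRB the difference was -0.315 (limma adjusted p = 0.0319), from log2 fold changes with PM10 of 0.0067 in normal and -0.308 in inflamed hIECs. The PDGFRB call was lost under median centring, without a trend of the variance and with a replicate block. No group had the 4 libraries needed to look for a library that stands apart.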

How the results depend on the processing

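In the 3 comparisons of inflamed with normal cells the number of PDGF genes called stayed within 5 to 7 of 7 under all alternatives that leave out a library. With PM10 in normal hIECs, where 1 gene was called, 2 were called under median centring, quantile normalization or protein-coding genes only, and 0 with only the groups compared or with a replicate block, and 0 to 2 when 1 library was left out (2, PDGFC and PDGFRL, without the first normal library). The share of all genes called moved as well, from 9.23% to 0.162% with only the groups compared and to 1.36% to 18.5% when 1 library was left out. With PM10 in inflamed hIECs 2 to 6 genes were called when 1 library was left out, the lowest being without the second inflamed library and the highest, with PDGFC and PDGFRL added, without either untreated normal library, where limma called 4.8% and 21.3% of all genes, against 15.2%. These swings thus follow those of all genes and say little about the PDGF genes. For the interaction, 1 gene in place of 2 was called with a minimum of 5 FPKM, which left 5 of the 7 genes, under median centring, without the trend and with a replicate block, and 1 to 3 when 1 library was left out, with 1.85% to 8.93% of all genes called. The replicate block changed no other count. Replicate numbers did not pair the libraries, with correlations of replicate differences between -0.0015 and 0.079 over 6 pairs of groups, and with the replicate block PDGFA with PM10 in normal hIECs and the interaction of PDGFRB had limma adjusted p of 0.0503 and 0.0501.

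A total of 11 values changed sign, none of them called either way. With PM10 in normal hIECs, PDGFRA was at -0.025 and PDGFRB at -0.048 under median centring and at -0.0070 and -0.014 under quantile normalization. With a library left out, PDGFC ranged from -0.026 to 0.25, PDGFRA from -0.026 to 0.085 and PDGFRB from -0.0088 to 0.022. PDGFA with PM10 in inflamed hIECs was 0.026 under quantile normalization and between -0.12 and -0.029 with a library left out. With a library left out, PDGFRL ranged from -0.20 to 0.062 between the double treatment and normal hIECs, and PDGFC from -0.094 to 0.18 in the interaction. The cause was not tested. PDGFA and PDGFB lie near the lowest FPKM above 0, which limits the precision of both.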
